A study of Mus musculus with 22 samples.

Results

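The 81 cytosolic ribosomal protein genes described here were chosen by name and signal. They are the genes of the array named Rpl or Rps with a number, together with Rpsa, Rplp0, Rplp1 and Rplp2, and with the Rps6 kinases and pseudogene names left out. A gene entered where at least 1 of its probes had Cy5 signal well above background on at least 10 of the 22 arrays. The name pattern found 84 genes, with 198 spots and 189 probes. Of these, 81 genes passed, with 177 tested probes, out of 16603 genes tested on the array. Rpl3l, Rpl10l and Rpl39l, paralogs of Rpl3, Rpl10 and Rpl39, did not pass.

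The tissue is epididymal white fat from males of the inbred mouse strain C57BL/6JOlaHsd. The hypoxia group is 10 mice kept at 12% oxygen for 6 hours, and the normoxia group is 12 mice kept at 20.9% oxygen for the same time, all after fasting. All mice of both groups were 10 weeks old on arrival. As far as the protocols say, fat gave 10% of their dietary energy for 3 weeks and 40% for the next 6 weeks. One phrase of the treatment protocol also names low-fat feeding at the end without assigning it to mice, so diet was not compared. RNA of 1 mouse per array carried Cy5, an equimolar pool of all samples carried Cy3, no dye swap was made, and each value below is a log2 ratio of Cy5 to Cy3. All 10 listed adipocyte markers had signal above the same limit.

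Ribosomes are built from ribosomal RNA and ribosomal proteins, which form a large subunit that joins amino acids and a small subunit that reads the message. Most of the proteins are needed in equal numbers. Their messages commonly start with a cytosine followed by a run of pyrimidines, the 5′ terminal oligopyrimidine (TOP) motif. Through this motif the kinase mTORC1 and the binding protein LARP1 set how much these messages are translated. In cultured mammalian cells low oxygen lowers mTORC1 activity, partly through DDIT4, and that control acts on translation of the messages more than on their amount. The arrays measured the amount of message only.

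The TOP start is shown for genes of each class, in RefSeq promoter windows of GRCm38.p6, picked from the members that had a match. Capitals mark the cytosine and the pyrimidines that follow it. Each line gives 30 bases, and the run begins after 10 of them. The cytosine lies at the annotated start in Rps6, Rpl38, Rplp2 and Rps15a, 2 bases downstream of it in Rpl13a and 3 in Rpl22l1. Rps6 is the small-subunit protein phosphorylated downstream of mTORC1 (chr4:86857348-86857377, minus strand). Rpl13a is a large-subunit protein whose message often serves as a reference in expression studies (chr7:45128724-45128753, minus strand), and Rpl38 is a small large-subunit protein (chr11:114668570-114668599, plus strand). Rplp2 is a stalk protein (chr7:141447641-141447670, plus strand), Rps15a a small-subunit protein (chr7:118116128-118116157, minus strand) and Rpl22l1 a paralog of Rpl22 (chr3:28805501-28805530, plus strand).
Rps6: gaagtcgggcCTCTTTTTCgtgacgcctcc
Rpl13a: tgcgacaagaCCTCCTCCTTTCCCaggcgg
Rpl38: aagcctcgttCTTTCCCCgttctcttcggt
Rplp2: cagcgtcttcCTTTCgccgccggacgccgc
Rps15a: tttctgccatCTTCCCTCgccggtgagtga
Rpl22l1: caagcccgttCTCTTCCCacggctgcagct

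Of the 81 genes, 59 matched a promoter window by symbol. A cytosine followed by at least 4 pyrimidines, within 5 bases of the annotated start, was counted for a gene where any of its windows held it. By that count 29 of the 59 genes (49.2%) had it, and 21.2% of 27025 genes. Other motifs were searched on both strands over the 300 bases of a window and counted by gene in the same way. CCGGAA, the core of ETS-factor sites, was in 55.9% of the 59 members and 16.7% of all genes. AAGATGGC, a core of YY1 sites, was in 10.2% and 3.19%. The hypoxia response core ACGTG was in 32.2% and 21.8%, and CACGTG, the E-box of MYC, which contains it, was in 10.2% and 8.09%. TATAAA was in 11.9% and 15.7%. These matches describe letters in a window and not bound sites.

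No ribosomal protein gene passed the test between hypoxia and normoxia. In limma over 16603 genes, 0 of 81 had an adjusted p under 0.05, where the share over all genes was 0%. At an unadjusted p under 0.05, 0 of 81 passed, against 5.29% of all genes. The smallest p of a member was 0.0501 (adjusted p = 0.943). On the log2 scale the differences of the 81 genes, hypoxia minus normoxia, ran from -0.19 (Rps15a) to 0.23 (Rps9). Their median was 0.04, against 0.00 over all genes. The members' median standard error was 0.123, against 0.0981 over all genes. Each of the 81 intervals of 95% held 0, and their outermost bounds were -0.43 and 0.61. The ranges of the 10 hypoxia mice and the 12 normoxia mice overlapped for every member. No share over all genes is given beside this, so it is not read as a trait of the family. In bulk tissue, fewer cells of a type and less message per cell cannot be told apart.

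**Figure D1:**
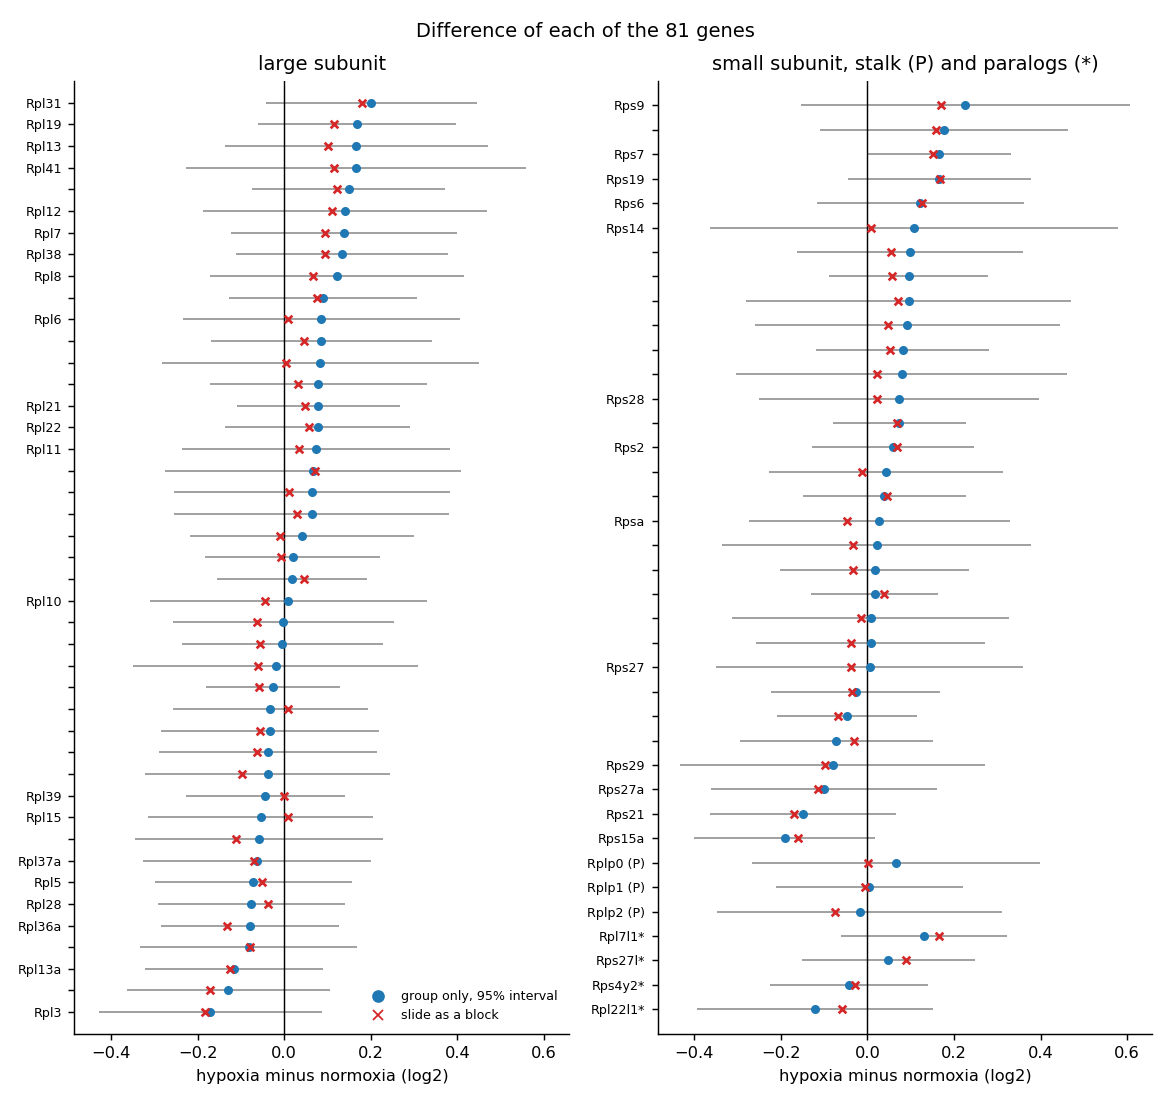
Hypoxia minus normoxia (log2 Cy5/Cy3, horizontal axis) of the 81 genes, by subunit. Only genes named in the text carry a name. Blue points with bars are the differences with group as the only term and their 95% intervals, red crosses the differences with slide as a block. Every interval crosses 0.

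By sign alone, 52 members had a higher mean in hypoxia and 29 a lower one, where 50.4% of all genes were higher. Without hypoxia replicate 7 the split was 28 higher and 53 lower. With each array centred on its median it was 0 and 81, but there the median of all genes was itself -0.21. In the deposited value table it was 12 and 69, where the median of all genes was -0.04. With the slide (6 slides per the file headers) as a fixed block, 43 were higher and 38 lower and the median was 0.01. Of all genes, 51% were higher in that fit. In that fit 0 of 81 passed by adjusted p, where 0.012% of all genes did, and 0 of 81 had an unadjusted p under 0.05, against 5.64%. Of the 81 signs, 13 turned between the fits. The family thus had no direction that held under these settings.

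The small subunit (31 genes) had 24 higher and 7 lower differences with a median of 0.04, and 17 higher with slide as a block. Its members nearest to the limit were Rps7, Rps15a and Rps19. Rps7, a small-subunit protein that can bind the p53 regulator MDM2 when unassembled, had log2 ratios with a lowest, median and highest value of -0.43, -0.15 and 0.08 in hypoxia, against -0.62, -0.34 and 0.10 in normoxia. Its difference was 0.17 ± 0.08 (SE), with 9 of 10 hypoxia mice above the normoxia mean (limma p = 0.0501, adjusted p = 0.943). The hypoxia range lay inside the normoxia range.

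Rps15a, whose TOP start is printed above, had the lowest difference. Its lowest, median and highest values were -0.72, -0.26 and 0.12 in hypoxia, against -0.54, -0.13 and 0.29 in normoxia. The difference was -0.19 ± 0.10 (SE; p = 0.0715, adjusted p = 0.951), and its other tested probe gave -0.05. Rps19 is the protein most often altered in human Diamond-Blackfan anaemia. It ran from -0.76 over a median of -0.10 to 0.11 in hypoxia, against -0.67, -0.31 and 0.06 in normoxia, a difference of 0.17 ± 0.10 (SE; p = 0.118, adjusted p = 0.963). One hypoxia mouse, replicate 6, held the lowest value at -0.76, while the other hypoxia mice lay between -0.29 and 0.11. Rps21, another small-subunit protein, ran from -0.13 over 0.24 to 0.41 in hypoxia, against -0.09, 0.27 and 0.71 in normoxia, and its difference was -0.15 ± 0.10 (SE; p = 0.164, adjusted p = 0.981).

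Rps9, a small-subunit protein, had the highest difference of the family, 0.23 ± 0.185 (SE; p = 0.232). Its lowest, median and highest values were -0.51, 0.43 and 1.47 in hypoxia, against -0.37, 0.17 and 1.24 in normoxia, so its groups overlapped over most of their ranges.

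The remaining small-subunit genes of known special roles had differences close to or under their standard errors. Rps6 had a difference of 0.12 ± 0.12 (SE; adjusted p = 0.982), from values of -0.45, -0.12 and 0.32 in hypoxia, against -1.18, -0.14 and 0.17 in normoxia. The lowest of these, a normoxia mouse, lay apart from all other mice. Rps27a, made as a fusion with ubiquitin, had a difference of -0.10 ± 0.13 (SE), from values of -0.20, 0.44 and 0.87 in hypoxia, against 0.23, 0.42 and 1.35 in normoxia, where 11 of 12 mice had a usable spot. Rpsa, also known as the laminin receptor precursor, had a difference of 0.03 ± 0.15 (SE), from -0.03, 0.22 and 1.36 in hypoxia, against -0.30, 0.29 and 1.01 in normoxia. For Rpsa the highest mouse of each group lay far above the group's median.

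Of the 43 large-subunit genes, 24 had higher and 19 lower differences, with a median of 0.02 and 23 higher with slide as a block. Rpl31, which lies near the exit of the peptide tunnel, had the smallest p of this class. Its lowest, median and highest values were -0.34, 0.05 and 0.81 in hypoxia, against -0.47, -0.08 and 0.41 in normoxia, a difference of 0.20 ± 0.12 (SE; p = 0.102, adjusted p = 0.963). Its 5 tested probes gave differences between -0.06 and 0.21. Rpl19, part of a bridge between the subunits, ran from -0.30 over 0.03 to 0.73 in hypoxia, against -0.57, -0.16 and 0.47 in normoxia (0.17 ± 0.11, SE; p = 0.145, adjusted p = 0.97). In both genes the highest hypoxia mouse stood above every normoxia mouse.

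Rpl5 and Rpl11 travel together with a small ribosomal RNA and, like Rps7, bind MDM2 when unassembled. Rpl5 had a difference of -0.07 ± 0.11 (SE), from values of -0.33, 0.26 and 0.57 in hypoxia, against -0.10, 0.20 and 0.62 in normoxia. Rpl11 had 0.07 ± 0.15 (SE), from values of -0.39, 0.28 and 1.10 in hypoxia, against -0.17, 0.24 and 1.06 in normoxia. The other tested Rpl11 probes gave -0.00 and -0.09, so the signs of the partners differed by 1 of 3 probes. Rpl38, needed in mice for translation of Hox messages, had 0.13 ± 0.12 (SE), from -0.21, 0.37 and 1.08 in hypoxia, against -0.18, 0.29 and 0.65 in normoxia. Rpl13a had -0.12 ± 0.10 (SE), from -0.29, -0.05 and 0.43 in hypoxia, against -0.18, 0.13 and 0.73 in normoxia. Rpl36a, another large-subunit protein, had -0.08 ± 0.10 (SE), from -0.57, -0.30 and 0.03 in hypoxia, against -0.73, -0.21 and 0.26 in normoxia. None of these passed the test (adjusted p between 0.981 and 0.995).

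The stalk of the large subunit, which recruits elongation factors, is made of Rplp0, Rplp1 and Rplp2. Rplp0, its base, ran from -0.05 over 0.18 to 1.16 in hypoxia, against -0.15, 0.05 and 1.26 in normoxia (difference 0.07 ± 0.16, SE). Rplp1 ran from -0.36 over -0.01 to 0.35 in hypoxia, against -0.37, -0.08 and 0.56 in normoxia (0.00 ± 0.11, SE). Rplp2 ran from -0.10 over 0.25 to 1.34 in hypoxia, against -0.17, 0.29 and 1.29 in normoxia (-0.02 ± 0.16, SE). Both ranges of Rplp0, and both of Rplp2, were stretched upwards by a few mice.

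Of the 7 paralogs on the array, 4 were tested. Rpl22l1 had -0.12 ± 0.13 (SE), from -0.72, -0.16 and 0.49 in hypoxia, against -0.43, -0.08 and 0.48 in normoxia. Rps27l, a paralog of Rps27 and a p53 target in human cells, had 0.05 ± 0.10 (SE), from -0.70, -0.27 and 0.10 in hypoxia, against -0.73, -0.33 and 0.01 in normoxia. Rpl7l1, a paralog of Rpl7, had 0.13 ± 0.09 (SE; p = 0.177, adjusted p = 0.981), from -0.26, -0.07 and 0.18 in hypoxia, against -0.63, -0.10 and 0.37 in normoxia. Rps4y2, which RefSeq names Rps4l by the probe's accession, had -0.04 ± 0.09 (SE), from 0.09, 0.35 and 0.63 in hypoxia, against 0.13, 0.37 and 0.80 in normoxia. Groups overlapped for each paralog, and none of the highest values came from the mice of slide 1 described below.

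In 10 members 1 hypoxia mouse stood apart from the other 9 by Dixon's test, and in most of them it was replicate 7. Rps28, a small-subunit protein, had lowest, median and highest values of -0.10, 0.19 and 1.45 in hypoxia, against -0.19, 0.09 and 1.18 in normoxia (difference 0.07 ± 0.16, SE). Rpl6, a large-subunit protein, had lowest, median and highest values of -0.19, 0.30 and 1.19 in hypoxia, against -0.52, 0.16 and 1.16 in normoxia (difference 0.09 ± 0.16, SE). Rpl8, a large-subunit protein near the catalytic centre, had lowest, median and highest values of -0.27, 0.09 and 1.05 in hypoxia, against -0.59, -0.05 and 0.88 in normoxia (difference 0.12 ± 0.14, SE). For these 3 genes the highest mouse of each group was on slide 1, and the groups overlapped. Rpl13 had lowest, median and highest values of -0.44, -0.13 and 0.81 in hypoxia, against -1.004, -0.27 and 0.52 in normoxia (difference 0.17 ± 0.15, SE). Rpl37a had lowest, median and highest values of -0.18, 0.05 and 0.86 in hypoxia, against -0.14, 0.10 and 1.09 in normoxia (difference -0.06 ± 0.13, SE). Rpl13 and Rpl37a belong to the large subunit, and both groups of each gene overlapped. Rps2, near the messenger entry, had lowest, median and highest values of -0.74, -0.23 and 0.03 in hypoxia, against -0.60, -0.28 and -0.06 in normoxia (difference 0.06 ± 0.09, SE), with replicate 4 lowest in hypoxia. Its other tested probe gave 0.18. Rpl21, a large-subunit protein, had lowest, median and highest values of -0.56, -0.02 and 0.27 in hypoxia, against -0.47, -0.16 and 0.31 in normoxia (difference 0.08 ± 0.09, SE), again with replicate 4 lowest. None of the genes named here had an unadjusted p under 0.05.

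**Figure D2:**
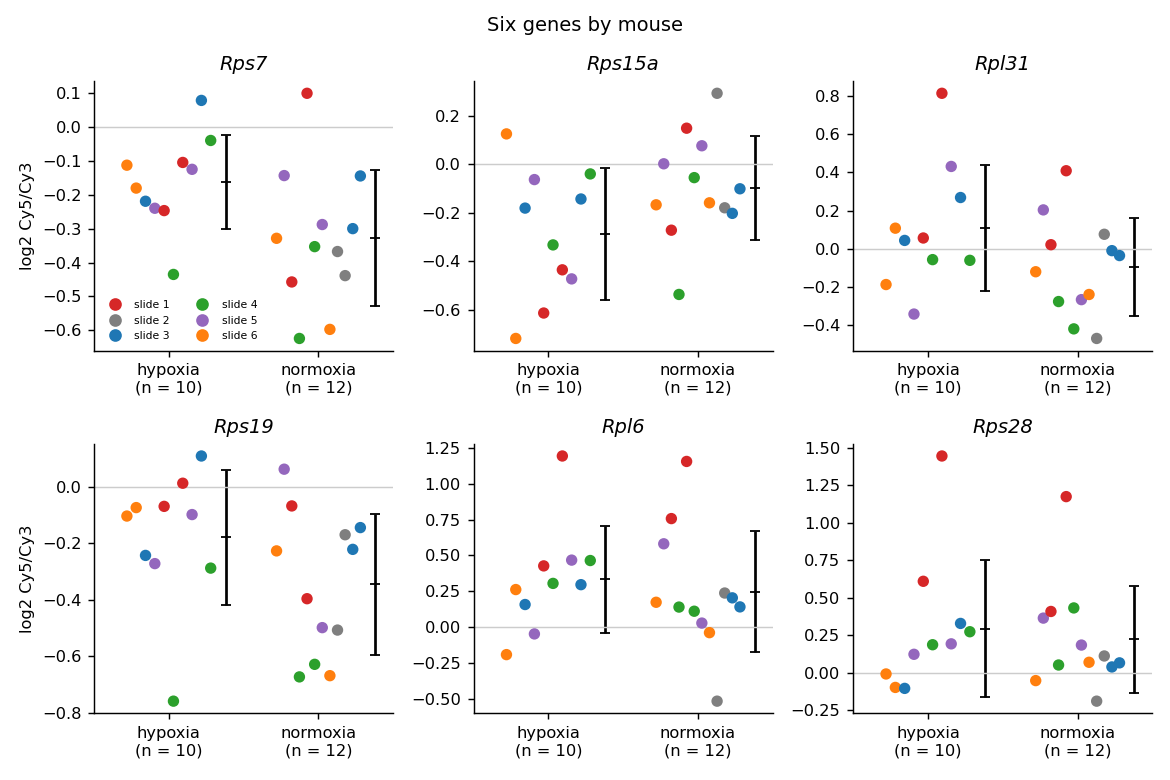
Log2 Cy5/Cy3 (vertical axis) of Rps7, Rps15a, Rpl31 and Rps19, the 4 members with the smallest p, and of Rpl6 and Rps28, in each mouse, coloured by slide. Bars are the mean and SD of a group. The groups overlap in each panel, and the highest values of Rpl6 and Rps28 in both groups are mice of slide 1 (by normexp and loess).

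For most members the highest values lay on 1 slide. Slide 1 carried hypoxia replicates 5 and 7 and normoxia replicates 3 and 5. Averaged over the 81 genes as deviations from each gene's mean, hypoxia replicates 5 and 7 stood at 0.22 and 0.55, and normoxia replicates 3 and 5 at 0.19 and 0.55. The 18 mice of the other slides lay between -0.18 and 0.10. Hypoxia replicate 7 was the highest hypoxia mouse for 60 of the 81 genes, and normoxia replicate 5 the highest normoxia mouse for 58. A normoxia mouse of the same slide thus stood as high as the highest hypoxia mouse.

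On slide 1 the mice gave little Cy5 signal. Cy5 was well above background for 18.4% and 15.6% of spots in its hypoxia mice and 18.9% and 18.3% in its normoxia mice, against 29.8% to 76.8% on the other slides. The median Cy5 signal over the members' spots was 771 and 543 in the hypoxia mice of slide 1 and 656 and 638 in its normoxia mice, against 2660 to 22500 elsewhere. The Cy3 signal of the pool over the same spots was 22100 to 24500 on slide 1 and 22300 to 35000 elsewhere.

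**Figure D3:**
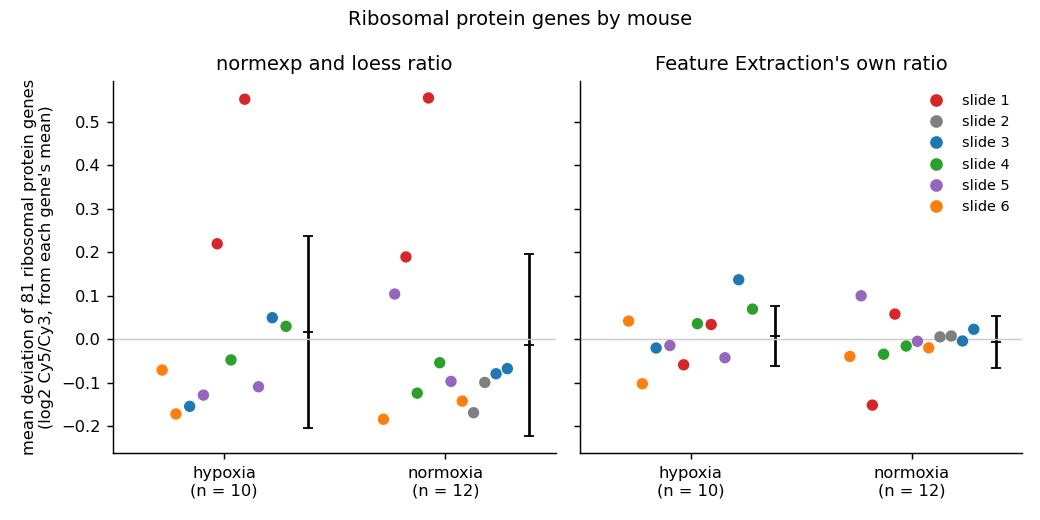
Mean deviation of the 81 genes in each mouse (vertical axis, log2 Cy5/Cy3), coloured by slide, hypoxia left of normoxia. Bars are the mean and SD of a group. With normexp and loess (left panel) the 4 mice of slide 1 stand between 0.19 and 0.55, above all others, and with the ratio of Feature Extraction (right panel) they stand between -0.15 and 0.06.

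Of the 81 genes, 70 were higher on slide 1 than on the other slides, against 46.5% of all genes, with a median log2 shift of 0.48, against -0.01 over all genes, but with Feature Extraction's own ratio 33 of 81 were higher and the median shift was -0.042, and by the deposited values 1 was higher. All genes had a median shift of -0.22 by Feature Extraction's ratio, so relative to them the members' median was 0.17 higher. By the deposited values all genes had a median of -0.82 and the members -2.08, and the SD over an array's spots was 1.07 to 1.22 on slide 1, against 1.66 to 2.38 elsewhere. With normexp and loess the median shift by class was 0.49 in the large subunit, 0.48 in the small subunit, 0.89 in the stalk and -0.11 in the 4 paralogs, none of which was higher. Rps14, at 1.31, and Rpl41, at 1.17, shifted most, and Rpl22l1, at -0.49, and Rpl5, at -0.21, had the lowest values. Of the cell markers, 9 of 10 adipocyte genes (median 0.73), 4 of 5 sperm and epididymis genes (0.61) and 5 of 7 smooth muscle genes (0.25) were higher on slide 1 too. Macrophage (6 of 12, -0.03), progenitor (5 of 10, 0.00), endothelial (5 of 9, 0.03) and skeletal muscle (1 of 2, -0.09) markers were split. Fewer were higher for B cell (0 of 4, -0.14), red blood cell (1 of 5, -0.17), mesothelium (4 of 11, -0.12) and T and NK cell (4 of 10, -0.01) markers. Translation factors had a median of -0.02, ribosome biogenesis genes of -0.03 and genes of mTORC1 and translation control of -0.02. Genes of other TOP messages had a median of 0.06, with 16 of 25 higher.

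**Figure D4:**
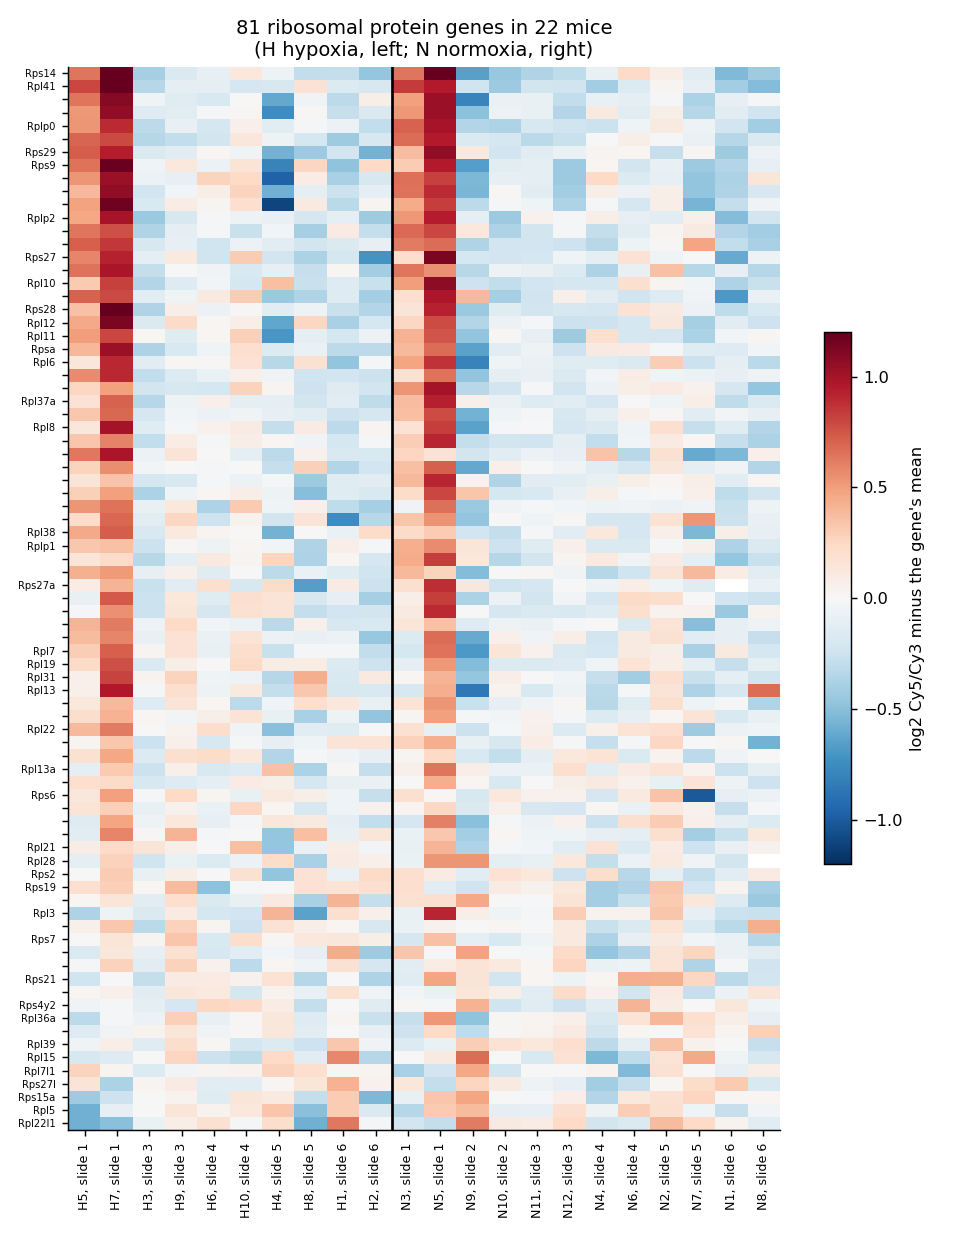
Deviation from the gene's mean (colour, log2 Cy5/Cy3, capped at the ends of the scale) of the 81 genes (rows, ordered by their shift on slide 1, named where the text names them) in 10 hypoxia mice, left of the line, and 12 normoxia mice, right of it, ordered by slide. Blank cells have no usable spot. The red columns are the slide 1 mice of both groups, above all replicate 7 of hypoxia and replicate 5 of normoxia, and Rpl22l1 has the lowest shift; with Feature Extraction's ratio 33 of the 81 genes are higher on slide 1.

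The shift on slide 1 followed the brightness of the probe. Among the 177 tested member probes it had a rank correlation of 0.871 with the mean log2 intensity over both dyes, given as a description over probes that share the same 22 arrays. The 58 probes above an intensity of 14 were all higher on slide 1, with a median of 0.70. The 95 probes between 12 and 14 had a median of 0.19, and the 24 probes under 12 had a median of -0.05. Probes of other genes had almost the same values in the same ranges, with medians of 0.71 over 357 probes above 14, 0.15 over 1304 probes between, and -0.02 over 19622 probes under 12. Members made up the bright range far more often, with 32.8% of their probes above 14, against 1.68% of the others. Brightness depends on the probe as well as on the message and is not a level of expression.

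**Figure D5:**
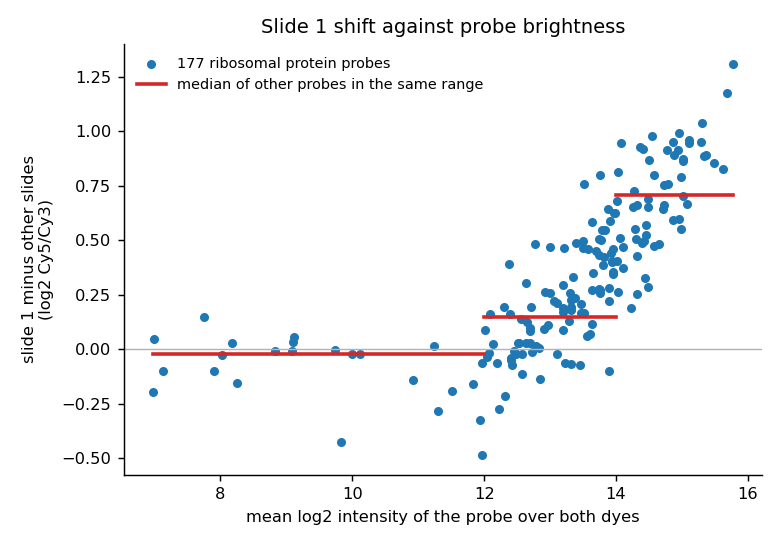
Mean log2 Cy5/Cy3 on slide 1 minus that on the other slides (vertical axis) of the 177 member probes against their mean log2 intensity over both dyes (horizontal axis). Red lines are the medians of other genes' probes under 12, between 12 and 14, and above 14, at -0.02, 0.15 and 0.71. The member probes follow the same steps; values are by normexp and loess, and by Feature Extraction's ratio the members' median shift is -0.042, against -0.22 for all genes.

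Probes of 1 gene parted in the same way. Of 56 genes tested by several probes, in 43 the brightest probe shifted further up than the dimmest, with medians of 0.50 and 0.09. Pairs for Rpl12 and Rps6 are printed because their probes read the same message and differ in brightness. Positions are on mm9 as the files give them, each 60-base probe reads in at least 1 frame without a stop codon, and no stretch is set in capitals. Rpl12 lies on the large subunit near the stalk. Its bright probe (chr2:32819082-32819298, plus strand, its bases spread over 217) had an intensity of 13.75 and a slide 1 shift of 0.80. Its dim probe (chr2:32818526-32818585, plus strand) had 12.04 and -0.04. For Rps6 the brightest of 3 probes (chr4:86500748-86500807, minus strand) had 13.76 and 0.26, and the middle one (chr4:86501867-86502058, minus strand, spread over 192) 12.14 and 0.02. The dimmest Rps6 probe, not printed, had 9.83 and -0.42.
Rpl12 bright: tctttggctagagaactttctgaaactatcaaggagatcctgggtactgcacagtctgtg
Rpl12 dim: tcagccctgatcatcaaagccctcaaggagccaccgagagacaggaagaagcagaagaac
Rps6 bright: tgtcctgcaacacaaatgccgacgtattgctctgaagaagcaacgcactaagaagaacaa
Rps6 middle: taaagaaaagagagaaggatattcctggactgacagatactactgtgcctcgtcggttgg

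The differences between groups also varied over these probes, by about the size of their standard errors or less. Hypoxia minus normoxia was 0.14 ± 0.16 (SE) by the bright Rpl12 probe and -0.02 ± 0.11 (SE) by the dim one. By the Rps6 probes, from bright to dim, it was 0.12 ± 0.12, 0.05 ± 0.10 and 0.04 ± 0.12 (SE). Over the family, 35 of these 56 genes had differences of both signs. The median range over the probes of a gene was 0.122, beside the members' median standard error of 0.123. That error comes from the spread between arrays, which all probes of a gene share, so it does not measure how far probes part. The widest range was 0.318, for Rpl28, a protein of the large subunit, whose probes gave -0.08 and 0.24. Rpl3, which reaches towards the catalytic centre, had -0.17 and 0.09. At the level of probes, 0 of 177 member probes had an unadjusted p under 0.05 in limma, against 1121 of all 21460 probes tested.

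Some probes have a listed position away from the gene they name. Of 176 tested member probes with a position in the files, 161 were on the chromosome that RefSeq gives for the gene and 11 on another. Those used for Rps27 (chromosome 9, where RefSeq places the gene on 3) and Rps29 (chromosome 2, against 12) were among the 11. The RefSeq transcripts listed for these same probes are nonetheless those of Rps27 and Rps29. Over the tested member probes, the listed transcript named the same gene for 159 and another symbol for 3. Position alone therefore does not show that a probe reads another message. On 1 chromosome, the probe used for Rps2 (chr17:42864841-42864900) lies far from its other tested probe (chr17:24857583-24857642). Rps27 had a difference of 0.00 ± 0.17 (SE) and Rps29 of -0.08 ± 0.17 (SE). Ribosomal protein genes have many near-identical copies in the genome, so signal of a gene and of its copies may not be separable, for these and for other members.

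The members varied together across mice, more closely with slide 1 than without it. The median correlation between pairs of members was 0.456 over 22 mice, 0.141 over the 18 mice without slide 1 and 0.274 over 22 mice after the mean of each slide was removed. These are descriptions over arrays that share the pool and the normalization (normexp and loess), and no such correlation is given for other genes. The slide held a median of 55.5% of a member's variance, against 25.6% for all genes. The median SD of a member was 0.301 over 22 mice, against 0.231 for all genes, and 0.207 over 18 mice, against 0.23. All genes are not matched to the members for brightness, where 32.8% of member probes and 1.68% of other probes were above 14. Other genes' probes above 14 shifted on slide 1 as the members' did (medians 0.71 and 0.70). Slide share and SD are thus not read as traits of the family. Over the 18 mice without slide 1, Rpl15, a large-subunit protein, had the highest SD, 0.337. Without slide 1, Rps28 had the highest correlation with the mean of the other members (0.782), and Rps27l (-0.203) and Rpl7l1 (-0.108) the lowest.

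Within slides, hypoxia minus normoxia of the members' mean was 0.01 on slide 1, 0.02 on slide 3, 0.08 on slide 4, -0.12 on slide 5 and 0.04 on slide 6, each from 2 mice against 2. Slide 2 held normoxia mice only. The mean over the 5 slides was 0.01. Over all mice the members' mean was 0.02 ± 0.22 in hypoxia (SD, n = 10) and -0.01 ± 0.21 in normoxia (SD, n = 12). Without slide 1 it was -0.08 ± 0.08 in hypoxia (SD, n = 8) and -0.09 ± 0.08 in normoxia (SD, n = 10). Leaving out that slide narrowed the spread in both groups and left their means a small part of an SD apart.

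Other genes of the translation machinery gave no call either. All lists below were chosen with results of these data known. Of 46 translation factors, 0 passed by adjusted p and 3 had an unadjusted p under 0.05, with 27 higher, 19 lower and a median of 0.03. Unadjusted calls in this and the next 3 lists are read against the 5.29% of all genes. The nearest were Eif2s3x, a subunit of initiation factor eIF2, at -0.23 ± 0.09 (SE; p = 0.0153, adjusted p = 0.834), Eif4g2, an eIF4G relative, at 0.20 ± 0.10 (SE; adjusted p = 0.934) and Eif2b4, a subunit of the exchange factor of eIF2, at -0.17 ± 0.08 (SE; adjusted p = 0.94). The elongation factors Eef1a1 and Eef2 had 0.04 ± 0.10 and -0.02 ± 0.09 (SE).

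Among 25 tested genes of other TOP messages, 0 passed and 1 had an unadjusted p under 0.05, with 15 higher, 10 lower and a median of 0.01. That gene was Hnrnpa1, which encodes an RNA-binding protein, at 0.19 ± 0.09 (SE; p = 0.0358, adjusted p = 0.902). Next came the initiation factors Eif3f, at 0.15 ± 0.09 (SE), and Eif4b, at -0.17 ± 0.11 (SE). Fau, which encodes a ribosomal protein as a fusion, had 0.00 ± 0.14 (SE), and Rack1, listed as Gnb2l1 in the files and part of the small subunit, had 0.07 ± 0.14 (SE). Tpt1, an abundant TOP message, had 0.00 ± 0.23 (SE), and Pabpc1, the poly(A)-binding protein, -0.09 ± 0.06 (SE).

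Of 59 tested ribosome biogenesis genes, 0 passed and 2 had an unadjusted p under 0.05, with 38 higher, 21 lower and a median of 0.02. The nearest, Utp14a and Noc3l, act in pre-ribosome assembly and had -0.21 ± 0.09 and -0.19 ± 0.09 (SE; adjusted p = 0.866 and 0.94), and Utp6, a further assembly factor, had -0.25 ± 0.12 (SE; adjusted p = 0.951). Of 30 tested genes of mTORC1 and translation control, 0 passed and 3 had an unadjusted p under 0.05, with 21 higher, 9 lower and a median of 0.02. Ddit4, the mTORC1 inhibitor induced by low oxygen, averaged 0.07 ± 0.40 in hypoxia (SD, n = 10) and -0.38 ± 0.32 in normoxia (SD, n = 12), a difference of 0.45 ± 0.14 (SE; p = 0.00353, adjusted p = 0.675). Rragc, a Rag GTPase that brings mTORC1 to lysosomes, had 0.25 ± 0.09 (SE; adjusted p = 0.834) and Lamtor2, part of its lysosomal anchor, -0.18 ± 0.08 (SE; adjusted p = 0.875). Larp1 had -0.08 ± 0.09, Eif4ebp1, a repressor of initiation under mTORC1, 0.13 ± 0.15, and Myc, a driver of ribosome production, 0.12 ± 0.08 (SE).

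Markers of the cell types of the fat pad were set beside the members. Of all genes, 50.4% were higher in hypoxia, and 51% with slide as a block. Adipocyte markers were higher in hypoxia in 10 of 10 (median 0.11), macrophage markers in 10 of 12 (0.11), mesothelium in 11 of 11 (0.17), smooth muscle in 7 of 7 (0.23) and red blood cells in 5 of 5 (0.35). Endothelial markers were higher in 7 of 9 (0.03), B cell markers in 3 of 4 (0.16), T and NK cell markers in 4 of 10 (-0.06), progenitor markers in 4 of 10 (-0.00), skeletal muscle markers in 2 of 2 (0.12) and sperm and epididymis markers in 0 of 5 (-0.41). Of the lists, 3 of 8 red blood cell, 3 of 8 sperm and epididymis, 3 of 7 B cell, 2 of 12 T and NK cell, 5 of 7 skeletal muscle and 1 of 8 smooth muscle markers were not matched to a tested gene. None of these genes passed by adjusted p. An unadjusted p under 0.05, which 5.29% of all genes had, was found for 4 of 7 smooth muscle, 3 of 5 red blood cell, 2 of 12 macrophage, 1 of 11 mesothelium, 1 of 9 endothelial and 1 of 10 T and NK cell markers, all higher in hypoxia. With slide as a block, adipocyte markers were higher in 9 of 10 (median 0.07), progenitor markers in 9 of 10 (0.05), endothelial markers in 4 of 9 (-0.01) and sperm and epididymis markers in 0 of 5 (-0.77). Macrophage markers were higher in 10 of 12 (0.15) in that fit. An unadjusted p under 0.05, which 5.64% of all genes had there, was found for 5 macrophage, 3 smooth muscle and 3 red blood cell markers. It was also found for 1 marker each of mesothelium, endothelial, T and NK cell and sperm and epididymis. Without slide 1, adipocyte markers were higher in 7 of 10 (0.02), endothelial markers in 8 of 9 (0.08) and progenitor markers in 4 of 10 (-0.03). As mean deviations, the adipocyte markers ran from -0.18 to 0.76 in hypoxia and from -0.42 to 0.67 in normoxia, and the red blood cell markers from -0.30 to 0.88 in hypoxia and from -0.83 to 0.55 in normoxia. The sperm and epididymis markers ran from -1.04 to 1.35 in hypoxia and from -1.22 to 3.02 in normoxia. Their part in the members' values was not tested.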

How the data were processed

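Feature Extraction 10.7.3.1 (Agilent) made the scanner files, per the submitters' processing notes. Deposited intensity values used here are each spot's mean signal and median local background, and the log10 ratio of Cy5 over Cy3 carries that program's own background and dye correction, per the file headers. A further table, deposited with log2 values of 33845 spots, has an equal median on every array. Its normalization by the authors is not stated in these sources.

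Background was corrected by normexp with an offset of 50 and each array normalized by loess in limma 3.58.1 (R 4.3.3), with control spots at weight 0, outlier spots left out and no scaling between arrays. Each array has 62976 spots on 1 of 6 slides. Probes entered the test with Cy5 well above background on 10 or more arrays and 2 or more values per group, and the brightest tested probe stood for its gene, by its name in the files. Group was the single term of the fit to the log2 ratio (lmFit, then eBayes), with Benjamini-Hochberg adjustment over 16603 genes and a threshold of 0.05. Alternatives were other background corrections, normalizations, filters and probe rules, Feature Extraction's ratio, the deposited table, slide and replicate blocks, and leaving out slides, arrays or each mouse. The code was tested on simulated data. Precision is limited by the number of arrays. The series text calls the samples of a group biological replicates.

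Every member could be named. Values by group were given for the 8 members with the smallest p, for those with a hypoxia mouse apart and for paralogs and proteins of special role, the 35 members with probes of both signs by counts and their widest examples, and translation lists by their 3 smallest p and a fixed set. Some genes that this rule takes in are not reported here. The members and all lists were chosen with earlier results of these data known. Sequences come from RefSeq windows of GRCm38.p6 and from the probe column of the files, whose positions are on mm9. Genome sequence of that build was not used here, so the exon under a probe is not given.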

Additional observations from a re-analysis of the deposited data

Results flagged for a closer look

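For 10 of the 81 genes 1 hypoxia mouse stood apart from the other 9 by Dixon's test at the 95% level, as it did for the mean of the large subunit. With 85 values searched, chance gives about 4.25 such cases, and the genes share their arrays. The cases reported here follow. Hypoxia replicate 7 was the mouse apart for Rps28 (1.45), Rpl6 (1.19), Rpl8 (1.05), Rpl37a (0.86), Rpl13 (0.81) and Rpl19 (0.73), and for the large-subunit mean (0.56), each value a log2 ratio or a mean deviation. The other hypoxia mice lay between -0.10 and 0.61 for Rps28 and between -0.19 and 0.47 for Rpl6. Normoxia replicate 5, on the same slide as replicate 7, had 1.18 for Rps28 and 1.16 for Rpl6, the highest values of normoxia. Hypoxia replicate 4 was the mouse apart, at the low end, for Rps2 (-0.74), the small-subunit protein near the message entry, and for Rpl21 (-0.56), a large-subunit protein. Hypoxia replicate 6 was lowest for Rps19 (-0.76).

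With Feature Extraction's own ratio, 4 members had a hypoxia mouse apart, 1 of them the same gene and mouse as above, and replicate 7 was not that mouse. The mean deviation of replicate 7 over the members was then 0.03. None of these genes was called between the groups.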

How the results depend on the processing

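Under all 38 alternatives 0 of the 81 genes passed by adjusted p, with a smallest adjusted p of 0.734. At most 3 of all genes tested passed in any of them. At most 3 members had an unadjusted p under 0.05, without normoxia replicate 5 and without hypoxia replicate 4. Of all 16603 genes, 967 and 1015 had such a p in these settings. The median difference was 0.04 and lay between -0.03 (without hypoxia replicate 7) and 0.09 (without normoxia replicate 5) when each mouse was left out, with 28 to 62 members higher. It was 0.01 with Feature Extraction's ratio and 0.01 with the slide as a fixed block. It was 0.01 without slide 1, also with the other slides as a block, an alternative chosen after seeing the data. With each array centred on its median in place of loess it was -0.29, where the median of all genes was -0.21, and so -0.08 relative to them. In the deposited table it was -0.10, against -0.04 over all genes. The median shift on slide 1 was 0.48 and between 0.38 and 0.56 with each mouse left out, 0.26 without background correction, -0.042 with Feature Extraction's ratio, -3.12 with median centring and -2.08 in the deposited table, where all genes had medians of -0.22, -1.46 and -0.82 under the last 3, and why it changes was not tested. Few spots had Cy5 well above background on slide 1 (15.6% to 18.9%). Of 2051 values of 54 named genes under the alternatives, 33 moved by over 1 SD between mice, all with median centring. Same-numbered mice deviated together in 2 of 10 pairs (correlations of -0.472 to 0.25), so the numbers were not taken as pairs. With a replicate block the median was 0.03 and 0 members passed.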
